A study of Rattus norvegicus with 55 samples.

Results

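Mature and immature rat kidney were compared on 6 Affymetrix arrays, 3 of each stage, of the 55 in the series. The arrays were chosen by a measured value: they are the immature and mature arrays on which the probe set X56596_at of RT1-Bb, which encodes the beta chain of a rat MHC class II molecule, read above 600. RT1-Bb read 1601.2, 1556.4 and 1411.5 on immature replicates 1, 2 and 3 and 1755.9, 1672.4 and 2007.8 on mature replicates 4, 8 and 12. Over the series 12 arrays lay above 600, 3 in each of the 4 description groups, and 43 lay at 80.1 to 263.0. The lowest value inside the rule was therefore 1411.5 and the highest outside it 263.0. These values chose the arrays, so no test of them is used as a result. RT1-Bb-high and RT1-Bb-low refer below to this probe set alone, since other probe sets of the gene did not share its pattern. M36151cds_i_at read 3.1 to 5.8 on the 6 arrays, and on the immature and mature arrays with a low X56596_at reading 218.5 to 1166.6 and 7.1 to 1103.4. U65217_i_at read 0.9 to 7.4 on the 6 and 192.8 to 877.0 and 369.9 to 836.9 on the others. The gene's brightest probe set, M36151cds_s_at, overlapped, with 469.7 to 1192.6 on the 6 and 643.0 to 1366.3 and 275.3 to 1526.3 on the others. The class II genes RT1-Ba and RT1-Db1 each had a probe set that did share the pattern, as given below. Every array was hybridised with total RNA from kidney. All samples are titled as kidney of SHR, which commonly stands for the spontaneously hypertensive rat, while the descriptions call both stages Wistar-derived. Immature and mature are the only words that tell the groups apart. No age, sex, treatment, diet or blood pressure was given. The labels leave unsaid whether the 3 arrays of a stage stand for 3 animals or pools, so p-values reflect only the scatter among these samples, possibly a technical one. The comparison asks which genes separate the stages among arrays that share a high X56596_at reading.

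As background, the rat kidney goes on growing and differentiating after birth. New nephrons form, stromal matrix is laid down and cells divide in the young organ. Tubule cells later gain the transporters, peptidases and P450 enzymes of the adult. MHC class II molecules present peptides to helper T cells and are highly polymorphic between rat strains.

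The deposited values are linear intensities, scaled so that the trimmed mean was 500.2 to 500.7 on each of the 6 arrays. Pearson correlations between the 6 on the log2 scale ranged from 0.9081 to 0.9641. Each mature array was most like another of the 3 mature arrays. The 3 immature arrays were each most like an immature array outside the 6. The control probe set of 5S ribosomal RNA read 24.1, 31.9 and 31.8 on the immature and 47.3, 47.2 and 100 on the mature arrays, with no overlap. The spike-in control CreX (5' probe set) read 8530.1, 7417.3 and 9209.0 on immature and 5826.0, 5834.6 and 4414.2 on mature arrays, again with no overlap (exact permutation test, 2-sided, p = 0.1, the smallest that 3 arrays against 3 allow). The other spike-in readings tested overlapped. By the same permutation test p was 0.3 for the 3' probe set of CreX and 0.9, 0.9 and 0.6 for BioB, BioC and BioD. The ratio of the 3' to the 5' GAPDH probe set, which rises as RNA degrades, was 0.972 to 1.03 on 5 arrays and 2.62 on mature replicate 12. That array also had the highest actin ratio, 2.82. The part of these control values in the differences below was not tested.

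The arrays carried the defining genes of kidney tubules at high levels. Lrp2, the megalin of the proximal tubule, read 5815.8 to 10843.9. Umod, the uromodulin of the thick ascending limb, read 4795.1 to 10880.7, and Aqp2, the water channel of the collecting duct, 1182.2 to 3556.6. Markers of other tissues were mostly dim, with the albumin gene Alb at 44.4 to 93.4 and the muscle actin gene Acta1 at 55.5 to 103.4. Exceptions were a probe set of the leptin gene Lep, at 2661.5 to 3654.4 on the 6 arrays, and the apolipoprotein gene Apoc3, at 940.3 to 1326.3. On immature replicate 1 the brown fat gene Ucp1 read 1533.4, against 33.7 to 123.1 on the other 5 arrays, and the fat cell gene Fabp4 had its highest value, 375.7. The part of fat in the results was not tested. Of 35 genes of liver, fat, adrenal and muscle 32 were on the array, and their summed intensity was 7358.2 to 9147.6 on immature and 6548.0 to 7776.0 on mature arrays. No member of the lists of podocyte, endothelial, smooth muscle, immune, erythroid and other-tissue markers was at 0 on all 6 arrays. The 16 erythroid genes held 10 on the array, with sums of 12943.9 to 21515.1 and 8377.8 to 13191.0. For the 12 endothelial genes on the array these ranges were 2087.7 to 3002.8 and 2807.9 to 3280.1. In such bulk tissue, fewer cells of a type and less RNA per cell cannot be told apart.

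Across 6555 probe sets, limma called 53 between the stages at an adjusted p under 0.05, which is 0.809% (867 had an unadjusted p under 0.05). Of the 53, 34 were higher and 19 lower in mature kidney. Counted by gene, each represented by its brightest probe set over the series, 17 of 3835 genes were higher (0.443%) and 13 lower (0.339%). A further 18 called probe sets belonged to genes whose brightest probe set was another, and 5 had no single gene name. The median log2 difference over genes was -0.007. The count leaned on each array: 10 probe sets were called without immature replicate 1, 40 without replicate 2 and 64 without replicate 3. Without mature replicate 4 it was 6, without replicate 8 it was 10 and without replicate 12 it was 4. All 53 kept their direction in these 6 fits. This was fixed beforehand, since none of the 53 overlapped between the stages on the 6 arrays. In every one of these fits 4 probe sets were called, those of Cyp2c11 (M18363cds_s_at), Pttg1 and Alpl and the unnamed M12112mRNA#3_s_at. The last read 12.5, 9.3 and 10.7 on immature and 249.7, 370.8 and 223.2 on mature arrays.

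The highest rise was that of Cyp2c11, a cytochrome P450 best known as the male-specific form of rat liver, which also makes epoxides of arachidonic acid. Its probe set J02657_s_at read 20.8, 89.4 and 239.4 on the immature arrays and 4360.7, 4183.8 and 4334.1 on the mature ones. The mature arrays lay close together, whereas the immature arrays, all far below them, spread widely. The mean log2 value was 6.64 ± 1.40 (SD, n = 3) in immature and 12.07 ± 0.03 (SD, n = 3) in mature kidney. The difference was 5.44 ± 0.61 (SE), or 43.3-fold (adjusted p = 0.0153, and 0.00745 to 0.0917 when 1 array was left out). A further 2 probe sets of the gene, M18363cds_s_at (17.5-fold) and X79081mRNA_f_at (5.90-fold), were called in the same direction. The Cyp2c genes are close copies of each other, so these probe sets may share signal with relatives. Cyp2c6v1 read 32.7, 123.7 and 66.5 against 197.0, 128.0 and 184.1 and was not called (log2 difference 1.15, adjusted p = 0.264).

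Other genes that rose included Jund, Stk25, Hnf4a and Resp18. Jund, a partner in the AP-1 transcription factor, read 90.8, 34.4 and 45.9 on immature and 658.2, 511.3 and 622.1 on mature arrays, 8.82-fold higher (adjusted p = 0.00876). Stk25, a serine/threonine kinase, read 20.2, 22.4 and 28.2 against 179.4, 333.2 and 288.3, 6.99-fold higher (adjusted p = 0.00832). Hnf4a, the transcription factor that maintains hepatocyte and proximal tubule identity, was called by its brightest probe set. It read 669.3, 661.9 and 625.6 on immature and 2042.8, 2119.2 and 1785.1 on mature arrays, a log2 difference of 1.58 ± 0.20 (adjusted p = 0.0186). Its 2 other probe sets gave 1.15 (adjusted p = 0.0747) and 0.93 (adjusted p = 0.228). Resp18, a protein of endocrine secretory cells, read 244.6, 197.2 and 333.4 against 870.9, 894.0 and 904.5 (3.37-fold), and its other probe set was called as well. The stages did not overlap in any of these genes.

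The kinase gene Oxsr1, whose product phosphorylates cation-chloride cotransporters, rose 4.27-fold. Mapk8ip1, a scaffold of the JNK pathway, rose 3.89-fold and Pak1, a kinase controlled by small GTPases, 3.52-fold. The neurofilament gene Nefm rose 3.65-fold, the RNA-binding protein gene Celf2 3.20-fold and the peptidase gene Prep 3.14-fold. Pzp, of the alpha-2-macroglobulin family, rose 2.92-fold and the uncharacterised LOC102555617 4.11-fold. Tgfb1, a cytokine that drives matrix synthesis, read 57.4, 77.5 and 65.5 on immature and 211.7, 261.5 and 249.7 on mature arrays (3.11-fold, adjusted p = 0.0186). The 2 smallest called rises were those of the receptor genes Erbb3 (2.50-fold) and Chrna4 (2.48-fold). Several of these genes were dim in immature kidney: Pak1 read 12.1 to 26.2 and Celf2 19.4 to 21.0 there, against an added offset of 15.82, so their folds are understated. Leaving out 1 array ended the call of Nefm, Prep and Chrna4 in each of 6 fits, with adjusted p of 0.053 to 0.193, 0.0529 to 0.194 and 0.0586 to 0.147. In the RT1-Bb-low arrays the rises of Oxsr1, Mapk8ip1, Pak1, Celf2, Tgfb1 and Chrna4 were not called. Those of Nefm, LOC102555617, Prep, Pzp and Erbb3 were called there too.

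**Figure D1:**
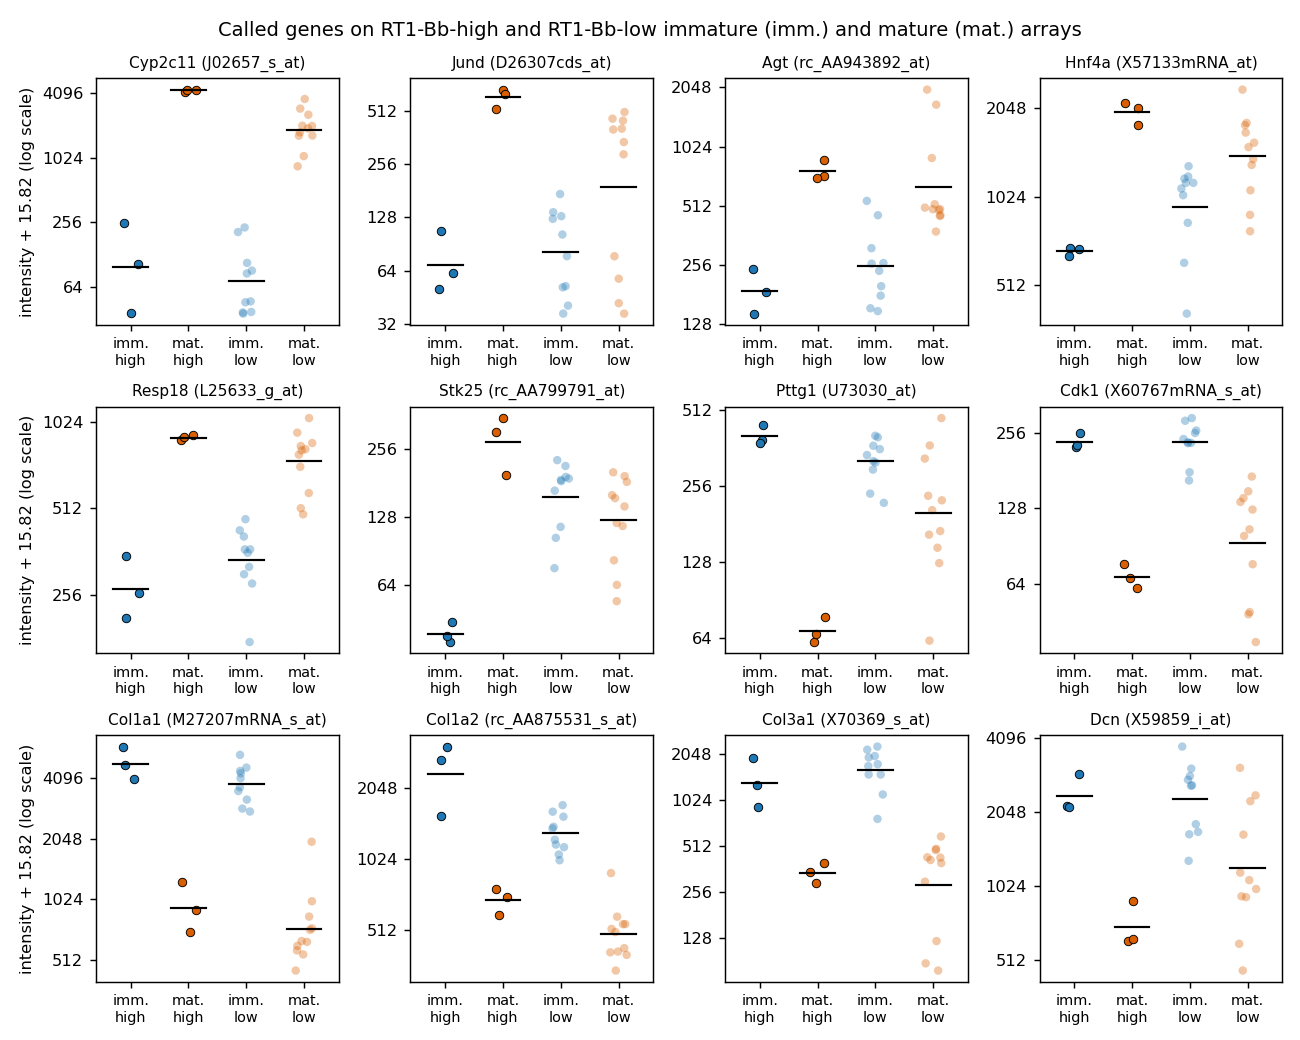
Intensity plus 15.82, on a log scale, of 12 called genes on the 3 immature and 3 mature RT1-Bb-high arrays (outlined points) and on 10 immature and 11 mature RT1-Bb-low arrays (pale points), with the geometric mean of each group as a line. Cyp2c11 lay at 4183.8 to 4360.7 on the 3 mature RT1-Bb-high arrays, and Stk25 at 20.2 to 28.2 on the 3 immature ones against 60.4 to 212.0 on the immature RT1-Bb-low arrays.

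Pttg1 and Cdk1, which act in mitosis, fell. Pttg1 encodes securin, which holds back separase until sister chromatids part. It read 373.2, 433.0 and 364.1 on immature and 45.8, 50.7 and 61.6 on mature arrays, 5.94-fold lower in mature kidney (log2 difference -2.57 ± 0.21, adjusted p = 0.00353). Cdk1, the mitotic cyclin-dependent kinase, read 209.2, 240.6 and 213.0 against 51.6, 45.6 and 60.7 (log2 difference -1.79 ± 0.20, adjusted p = 0.0153, and 0.0402 to 0.0943 when 1 array was left out). Of 18 genes of the mitosis and cell cycle list tested, Cdk1 was the 1 called lower, and 0 were called higher. The list's median log2 difference was -0.40, beside -0.007 over all genes, and -0.10 on the RT1-Bb-low arrays. In 5 of the 18 every mature array lay below every immature one, and in 1 above, whereas 8.94% and 10.2% of all genes did so. Top2a, a topoisomerase of dividing cells, read 526.3, 273.5 and 515.5 against 142.3, 132.6 and 133.8 (adjusted p = 0.0675). Of 17 genes of DNA replication 0 were called, 15 had a difference below 0 and the median was -0.32 (-0.65 on the RT1-Bb-low arrays). Among them Mcm5, a subunit of the replicative helicase, read 114.7, 98.0 and 137.2 against 31.3, 66.5 and 65.8 (adjusted p = 0.215).

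Promoters of mitotic genes often carry CCAAT boxes and a cell cycle homology region, searched here by the letters TTTGAA. Promoters are shown for Cdk1 and Col1a2, the called cell cycle and matrix genes that matched the table, from the RefSeq annotation of GRCr8. Each covers the 250 bases before the annotated start, 5′ to 3′, on the plus strand at chr20:19265043-19265292 for Cdk1 and chr4:33518307-33518556 for Col1a2. Capitals mark matches to either motif on either strand, so a match on the opposite strand is seen as its reverse complement.
Cdk1: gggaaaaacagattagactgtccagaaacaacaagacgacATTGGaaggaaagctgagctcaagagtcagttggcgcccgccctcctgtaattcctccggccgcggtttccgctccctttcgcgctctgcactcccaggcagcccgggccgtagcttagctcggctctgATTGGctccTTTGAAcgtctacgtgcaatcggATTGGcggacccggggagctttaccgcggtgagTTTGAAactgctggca
Col1a2: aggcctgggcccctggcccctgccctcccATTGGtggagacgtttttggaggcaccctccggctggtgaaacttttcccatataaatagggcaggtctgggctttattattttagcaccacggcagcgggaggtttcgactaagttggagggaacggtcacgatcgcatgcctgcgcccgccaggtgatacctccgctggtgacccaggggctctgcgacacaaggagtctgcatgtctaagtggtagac
In Cdk1 the letters CCAAT occur 3 times, all on the opposite strand, with the first base 210, 81 and 49 bases before the start, and TTTGAA 2 times, 72 and 16 bases before it, without overlap between the motifs. In Col1a2 CCAAT occurs 1 time, on the opposite strand, 221 bases before the start. Of 27457 promoters of this length, 34.3% held CCAAT and 16.0% TTTGAA on either strand.

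Col1a1, Col3a1, Col1a2 and Dcn, genes of the fibrillar matrix, fell. Of 19 tested genes of the list of fibrillar collagens and associated matrix, 4 were called lower and 0 higher, and in 10 every mature array lay below every immature one (8.94% of all genes). The median log2 difference was -0.44, beside -0.007 over all genes. The difference was largest in Col1a1, a chain of type I collagen, which read 5831.6, 4697.7 and 4025.3 on immature and 694.4, 1230.2 and 887.3 on mature arrays, or 5.19-fold lower (adjusted p = 0.0167, and 0.0386 to 0.0917 when 1 array was left out). Col1a2 read 3059.0, 2679.1 and 1545.9 against 576.2, 751.5 and 690.1, 3.43-fold lower (adjusted p = 0.0476). Col3a1, the collagen that accompanies type I in soft tissue, read 1916.5, 900.0 and 1263.2 against 375.9, 276.8 and 327.7, 3.86-fold lower (adjusted p = 0.035). Dcn, the proteoglycan decorin that binds collagen fibrils, read 2914.7, 2152.0 and 2119.7 against 592.5, 607.1 and 874.9 (3.43-fold, adjusted p = 0.0254). By these probe sets the called members did not overlap between the stages. Another probe set of Col3a1, M21354_s_at, overlapped (-0.30, adjusted p = 0.646), as did Z12298cds_s_at (-0.68, adjusted p = 0.39) and rc_AI639233_s_at (-0.85, adjusted p = 0.409) of Dcn. Leaving out 1 array gave an adjusted p of 0.0364 to 0.194 for Col1a2, 0.0402 to 0.147 for Col3a1 and 0.0458 to 0.135 for Dcn.

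Other matrix genes, singled out after their values were seen, lay on the same side without being called. Fn1, fibronectin, had a log2 difference of -1.34, Col5a2 of -0.97 and Eln, elastin, of -0.91. The brightest probe set of Sparc, a matricellular protein, did not separate the stages (-0.44), although rc_AA946313_s_at of the same gene was called (1473.2, 1193.6 and 858.7 against 309.5, 297.9 and 395.0). Of 7 basement membrane genes 0 were called, with a median of -0.52. Col4a5 read 424.3, 389.0 and 452.5 against 257.9, 254.6 and 326.8 (adjusted p = 0.292). Of 24 genes of matrix turnover 0 were called. The gelatinase gene Mmp9 lay lower (102.8, 194.8 and 82.9 against 24.5, 25.0 and 42.5, adjusted p = 0.0898), and Timp3, a protease inhibitor, higher (384.2, 697.7 and 546.1 against 1120.8, 756.9 and 904.2, adjusted p = 0.291). The summed intensity of smooth muscle and mesangial markers was 9142.7 to 11747.2 on immature and 8425.7 to 8667.9 on mature arrays. Of 17 such genes 16 were on the array, and 0 of the 14 tested were called, with a median of -0.20. The brightest, the tropomyosin gene Tpm1, held a large part of each sum. It read 4849.0, 5085.2 and 4093.7 against 3973.8, 3773.6 and 3481.4 (adjusted p = 0.544). Its part in the separation of the sums was not tested. The part of these cells in the fall of matrix genes was not tested.

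**Figure D2:**
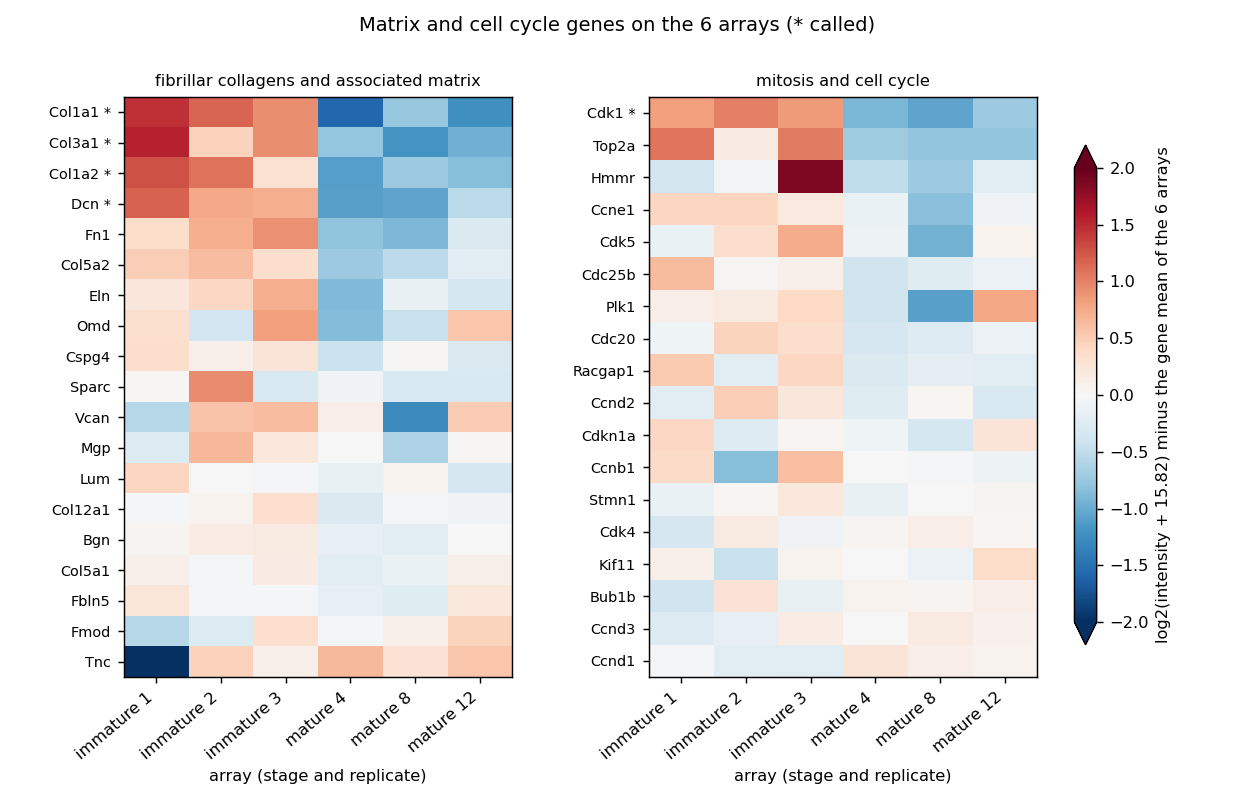
Colours give log2(intensity + 15.82) minus the gene's mean over the 6 arrays for 19 matrix genes and 18 cell cycle genes (rows), by array (columns), with an asterisk at called genes. Col1a1, Col3a1, Col1a2, Dcn and Cdk1 are above their mean on all 3 immature arrays and below it on all 3 mature ones, while 9 of the 19 matrix genes do not separate the stages.

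The remaining falls were scattered over functions. Fkbp11, a prolyl isomerase of the secretory pathway, read 125.0, 203.9 and 139.6 against 39.7, 23.4 and 33.4 (3.55-fold). Ddit3, the stress transcription factor CHOP, read 163.2, 161.6 and 239.5 against 38.2, 46.7 and 70.4 (3.03-fold). Plcb4, a phospholipase C, was 4.22-fold lower by AF027571_s_at, while L15556_at of that gene gave 0.89 (adjusted p = 0.585). The neurotrophin receptor gene Ngfr was 3.33-fold lower by U25650_f_at, with -0.16 by X05137_at. Actg1, cytoplasmic gamma actin, read 11445.6, 10614.8 and 10447.6 against 4193.6, 4079.6 and 3245.0. Actin genes are near-identical, so this probe set may read several of them. Leaving out 1 array ended the call of Ddit3 in each of 6 fits (adjusted p = 0.08 to 0.195).

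Transporters of the proximal tubule, which reclaim most of the filtrate, lay mostly higher in mature kidney. Of 35 tested genes 0 were called, 25 had a difference above 0 and the median was 0.28. In 11 every mature array lay above every immature one, and in 1, the amino acid transporter subunit gene Slc3a1, below (10.2% and 8.94% of all genes). Slc22a2, an organic cation transporter, read 584.2, 2055.6 and 2215.6 on immature and 4835.2, 6016.3 and 4651.5 on mature arrays (log2 difference 1.87 ± 0.49, adjusted p = 0.158). Slc16a1, which carries lactate, read 460.9, 664.6 and 395.8 against 1203.7, 1107.8 and 1205.9 (adjusted p = 0.084). Slc2a5, a fructose transporter, read 634.3, 840.8 and 803.7 against 1305.7, 1827.5 and 1343.8, and Slc6a13, a GABA and taurine carrier, 339.8, 349.7 and 377.0 against 601.0, 611.0 and 555.8. The phosphate cotransporter gene Slc34a1, singled out after its values were seen, lay on the other side (13245.4, 20198.3 and 10525.0 against 10747.3, 4235.4 and 3890.0, adjusted p = 0.252).

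Downstream segments showed no call either. Calb1, the calcium-binding protein of the distal tubule, came closest, with 5917.8, 4967.4 and 5414.3 on immature and 2378.9, 2082.4 and 2677.5 on mature arrays (log2 difference -1.19 ± 0.21, adjusted p = 0.0564). The water channel gene Aqp2 read 1970.9, 3556.6 and 3040.5 against 1182.2, 1225.1 and 1240.0 (-1.18 ± 0.26, adjusted p = 0.108). Of 18 genes of sodium transport in the loop and distal tubule 0 were called. In 4, among them Fxyd4, Umod and Atp1b1, every mature array lay below every immature one (8.94% of all genes). The list's median was -0.07. Of 13 brush border genes Alpl alone was called, as described below. Ace, which makes angiotensin II, read 280.7, 222.9 and 295.6 against 330.6, 535.3 and 461.6 (adjusted p = 0.293).

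Among podocyte markers the actin cross-linker gene Actn4 read 208.4, 376.7 and 303.3 against 831.8, 687.4 and 742.8 (adjusted p = 0.0749). Wt1, a transcription factor of podocytes and the nephron blastema, read 56.5, 97.9 and 81.4 against 31.1, 7.9 and 27.9 (adjusted p = 0.134). Both separated the stages, in opposite directions, and 0 of 4 podocyte genes were called. Over all genes, every mature array lay above every immature one in 10.2% and below in 8.94%. The summed intensity of the 5 podocyte genes on the array was 822.3 to 1115.0 on immature and 1280.6 to 1438.8 on mature arrays. Actn4 held a large part of the mature sums, and its part in their separation was not tested. Of 15 genes of the developing kidney 0 were called, with a median of -0.07. Of 11 endothelial genes 0 were called and 10 had a difference above 0, with a median of 0.21. Of 13 immune genes 0 were called, and the summed intensity of the 21 on the array was 6435.6 to 6892.6 on immature and 4679.8 to 6209.2 on mature arrays. Without Spp1 the sums overlapped, at 3732.4 to 4219.4 and 3208.6 to 4170.7. The list's median was 0.04, with 7 of 13 differences above 0. The pan-leukocyte gene Ptprc read 112.3, 144.4 and 114.3 against 181.8, 206.1 and 184.0 (adjusted p = 0.288). Other class II genes are given as a description only, because RT1-Bb chose the arrays. RT1-Da read 2930.5 to 5906.6 over the 6 arrays, and 2864.6 to 5647.0 and 3780.8 to 7816.2 on the immature and mature RT1-Bb-low arrays. RT1-Ba read 2116.3 to 3594.5 on the 6, against 456.2 to 1029.0 and 852.1 to 1057.3. RT1-Db1 read 1664.6 to 2170.3 on the 6, against 460.2 to 1122.7 and 788.2 to 1228.5. These probe sets of RT1-Ba and RT1-Db1 split the arrays as X56596_at did, while M22366_at of RT1-Ba overlapped.

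Hormone genes gave 1 call. Agt, the gene of angiotensinogen, from which renin releases angiotensin I, read 129.1, 229.1 and 170.8 on immature and 713.5, 861.4 and 696.5 on mature arrays. The difference was 2.03 ± 0.25 on the log2 scale, 4.10-fold (adjusted p = 0.0186, and 0.0336 to 0.0943 when 1 array was left out). It was the 1 called of 11 tested renin-angiotensin and kallikrein genes, whose median was 0.06. Of 17 genes of the IGF and growth hormone axis 0 were called, although in 5 every mature array lay above every immature one and in 0 below (10.2% and 8.94% of all genes). They included the receptor gene Igf1r (342.6, 258.4 and 297.1 against 513.6, 574.5 and 527.8), the binding protein gene Igfbp5 (178.0, 198.5 and 203.8 against 324.7, 324.2 and 488.9) and Igfals, the acid-labile subunit (459.5, 510.8 and 534.0 against 703.8, 741.9 and 740.7). Their adjusted p was 0.149, 0.161 and 0.293.

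Cyp2c11 and Glul were the genes called in the metabolic lists given here. Over all genes 0.443% were called higher and 0.339% lower. Of 42 genes of cytochrome P450, eicosanoid and epoxide metabolism Cyp2c11 was the 1 called, and the list's median was 0.10. The secreted phospholipase gene Pla2g2a was next (32.2, 21.4 and 14.5 against 54.1, 102.3 and 90.1, adjusted p = 0.0942). Of 41 glutathione and conjugation genes 0 were called. Gsta3 lay lower (2052.9, 1372.0 and 1171.9 against 690.4, 570.9 and 633.1) and Gstp1 higher (3993.7, 5774.6 and 5649.3 against 7461.3, 10992.2 and 6704.4), with adjusted p of 0.0934 and 0.338. Of 38 genes of fatty acid oxidation 0 were called. Acot2, a mitochondrial thioesterase, read 358.7, 185.4 and 172.2 against 689.7, 640.1 and 519.5 (adjusted p = 0.11). Among 42 enzymes of amino acid metabolism and gluconeogenesis, Glul was called lower and 0 were called higher. Pck1, the rate-limiting enzyme of gluconeogenesis, read 2976.9, 4009.3 and 2826.7 against 6189.3, 7772.5 and 5815.3 (1.01 ± 0.24, adjusted p = 0.126).

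Injury and stress genes did not share a direction. In the list of tubular injury genes and annexins Tgfb1 was called higher, yet 18 of 24 tested genes had a difference below 0 and the median was -0.33. Anxa2, a membrane-binding annexin, read 1414.0, 1193.2 and 1391.3 against 729.5, 818.5 and 828.7 (adjusted p = 0.172), and Spp1, osteopontin, 2723.3, 2703.2 and 2673.2 against 1946.4, 1471.2 and 2038.5 (adjusted p = 0.299). Jund was the 1 called of 21 heat shock and immediate early genes, with a median of 0.04. The brightest probe set of Jun gave 1.02 (adjusted p = 0.155), and X17163cds_s_at of that gene was called at 2.24. Of 9 circadian genes 0 were called, although Bhlhe40, a clock repressor, did not overlap (198.1, 181.2 and 259.6 against 398.5, 429.8 and 455.2, adjusted p = 0.113).

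**Figure D3:**
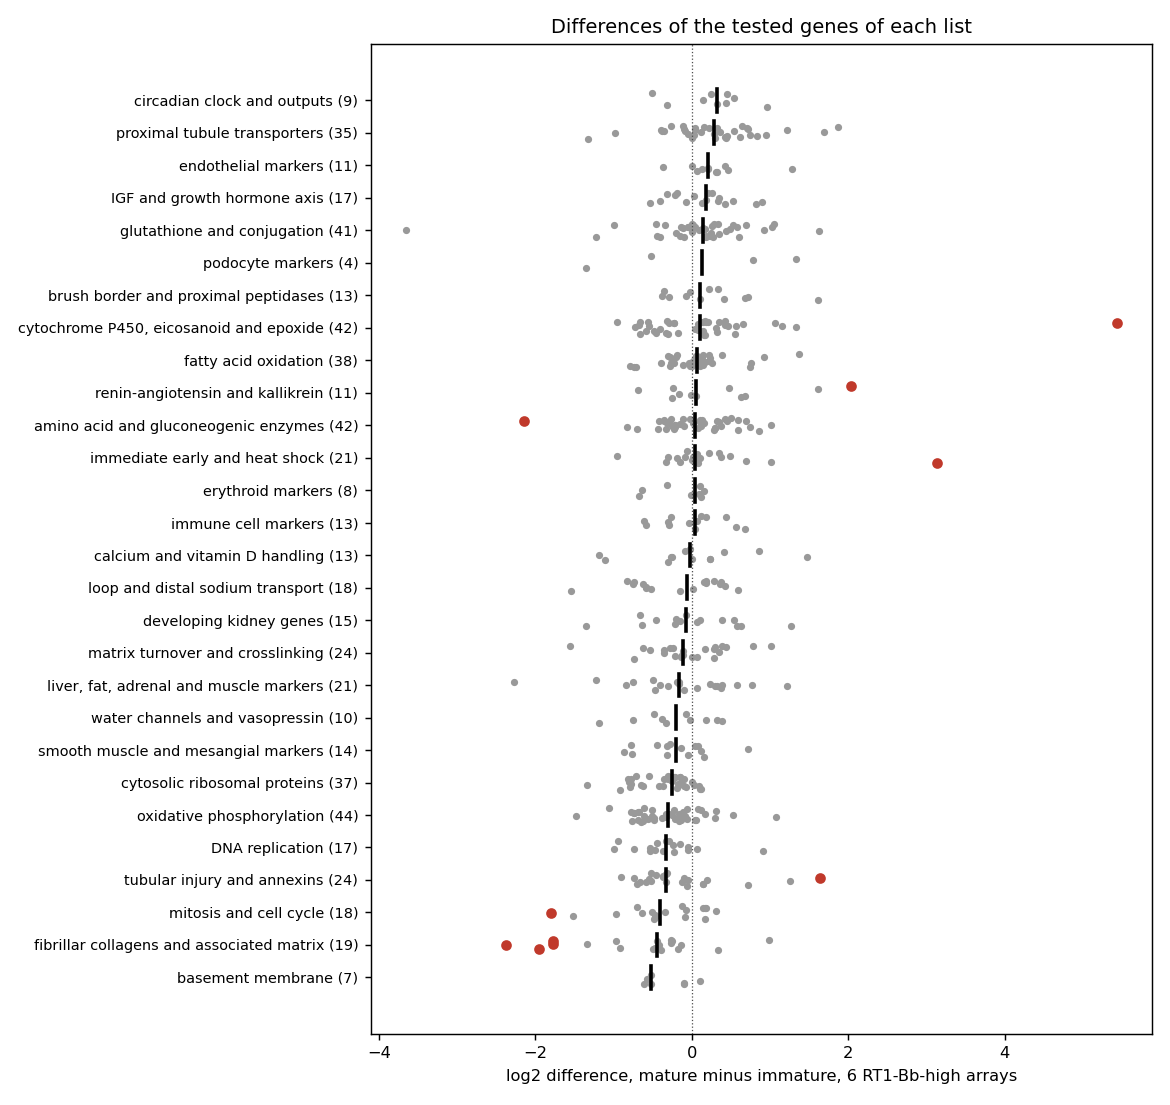
Each point is the log2 difference (mature minus immature, 6 arrays) of a tested gene, by list, with the number of genes in parentheses, called genes in red and the list median as a black bar. Medians run from -0.52 for basement membrane to 0.32 for circadian genes. Alpl, listed at 0 on the mature arrays, and MHC class II genes are not drawn.

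Genes of oxidative phosphorylation and cytosolic ribosomal proteins, both very abundant, lay lower without a call. Of 44 oxidative phosphorylation genes 35 had a difference below 0, with a median of -0.30. In 18 every mature array lay below every immature one and in 1 above (8.94% and 10.2% of all genes). Quantile normalization moved that median to -0.21. Atp5po, an ATP synthase subunit, read 8591.4, 15781.6 and 9692.4 against 5885.8, 5293.7 and 4668.1 (adjusted p = 0.161), and Cox4i2 737.8, 805.4 and 709.2 against 501.7, 462.7 and 415.1. Of 37 ribosomal protein genes 33 had a difference below 0, with a median of -0.25, or -0.15 after quantile normalization. In 12 every mature array lay below every immature one and in 0 above (8.94% and 10.2% of all genes). Rpl31 read 6342.8, 6823.4 and 7627.0 against 4492.6, 3725.6 and 5171.3 (adjusted p = 0.265). Brightness moved with these counts. Probe sets were cut into 10 bins of 655 or 656 by mean level. In the brightest bin 116 lay lower and 67 higher on every mature array. In the 3 bins below it 56, 47 and 42 lay lower and 104, 113 and 100 higher. The median difference of the brightest bin was -0.08, and 0.04 after quantile normalization. The part of brightness in the 2 lists was not tested. On the RT1-Bb-low arrays the median was 0.002 for oxidative phosphorylation and -0.246 for ribosomal proteins, so only the second list lay lower there too.

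The called probe sets of Alpl and Glul disagreed with other probe sets of their gene. J03572_i_at of Alpl, the tissue-nonspecific alkaline phosphatase of the brush border, read 13330.9, 25175.0 and 11087.2 on immature arrays and is listed at 0 on all 3 mature ones. Over the series 6 arrays list it at 0, all with a 5S reading of at most 100: the 5 mature arrays with such a reading and immature replicate 5. On the other 49 arrays it read 8902.4 to 43361.2. The other probe set of Alpl lay on the opposite side, with 1680.6, 1587.4 and 2489.7 on immature and 3342.5, 3945.2 and 3140.9 on mature arrays (adjusted p = 0.191). Gpx3, an extracellular glutathione peroxidase, was likewise listed at 0 on mature replicate 12 and read 9694.3 to 20948.9 on the other 5 arrays.

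Glul, which encodes glutamine synthetase, fell by its brightest probe set, rc_AI232783_s_at, from 8371.1, 11946.3 and 9759.1 to 2797.0, 2774.1 and 1435.3 (-2.14 ± 0.31, adjusted p = 0.0286, and 0.0655 to 0.0943 when 1 array was left out). Its 3 other probe sets gave 0.03, -0.36 and 1.27. The last, rc_AA852004_s_at, read 1365.0, 1767.7 and 1931.3 against 4136.8, 3872.5 and 4156.3 (adjusted p = 0.0505). Of the 30 called genes 12 had another tested probe set, 20 in all, of which 16 lay on the same side, 5 of them called, and 4 on the opposite side, in Alpl, Glul and Plcb4. Genes called only by a dimmer probe set are outside this tally. In Rara (-0.011 against 2.065), Psap (-0.253 against 1.343) and Akr1c14 (-0.131 against 1.404) the brightest probe set overlapped and had the opposite sign. So it did in Entpd2 (-0.074 against 1.828) and Pdgfra (-0.041 against 1.663). In Nr2f6, Jun, Hsph1, Maf, Mfn2, Fga, C1qb and Sparc it had the same sign.

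**Figure D4:**
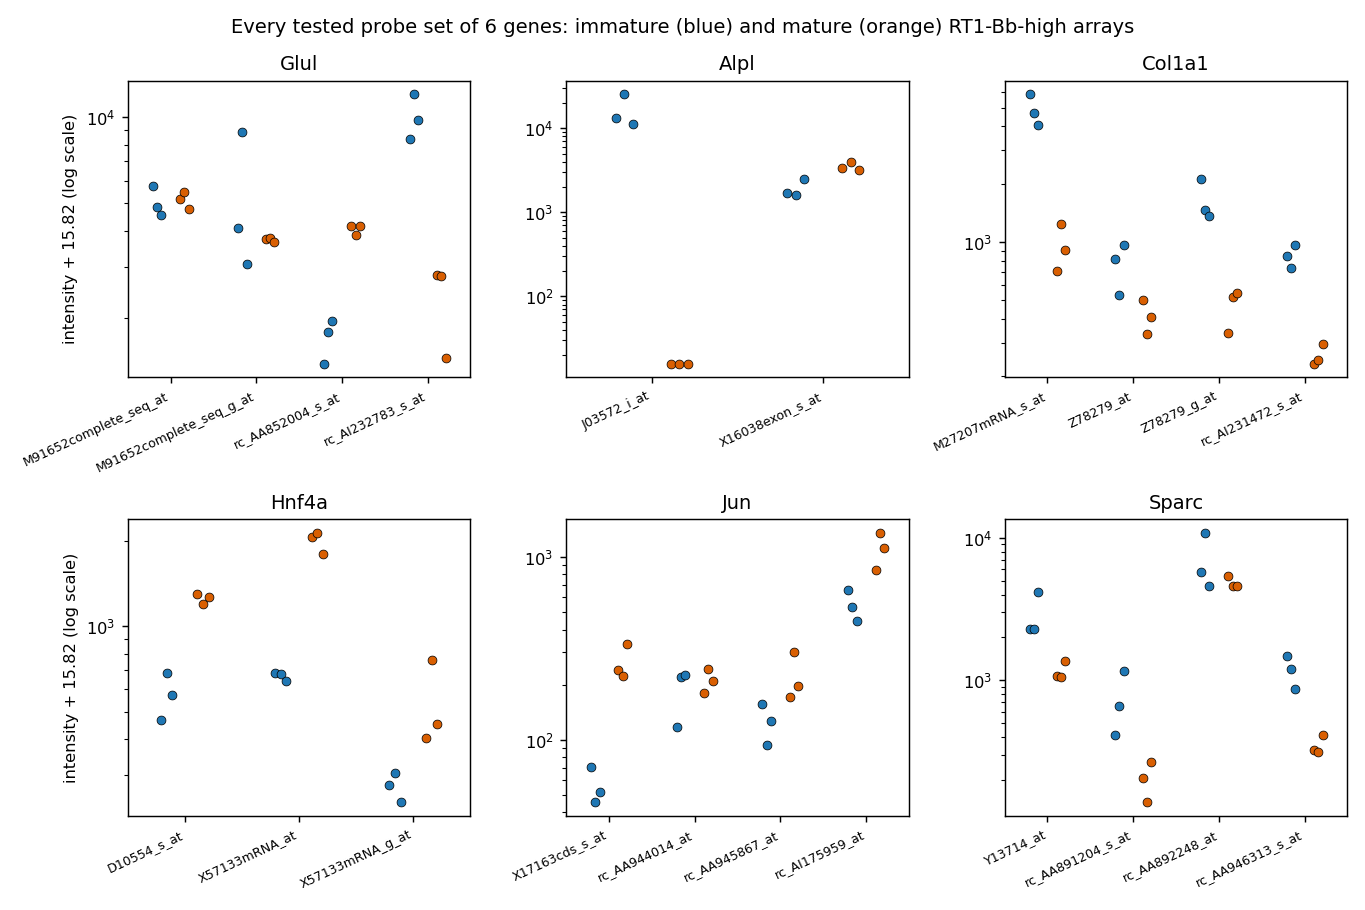
Intensity plus 15.82, on a log scale, for each tested probe set of 6 genes on the 3 immature (blue) and 3 mature (orange) RT1-Bb-high arrays. The 3 probe sets of Hnf4a and the 4 of Col1a1 lie on 1 side, while those of Glul and Alpl lie on both sides.

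The other 21 immature and mature arrays, with RT1-Bb at 88.8 to 258.1, were compared in the same way. A 5S reading of at most 100 was found on 3 of the 10 immature and 2 of the 11 mature arrays among them, so most of them had a higher 5S reading than the 6. There limma called 1521 probe sets, 23.2% of those tested. Of the 53 called in the 6 arrays 46 (86.8%) had the same direction in the 21, beside 54.4% of all probe sets tested. In 28 of the 53 (52.8%) the call was made there too, in the same direction, which is 1.84% of the 1521. In the 5 arrays with a low 5S reading, whose mature side is only replicates 5 and 9, the latter with a GAPDH ratio above 3, 33 of the 53 had the same direction, beside 50.7% of all tested. In those 5 limma called 0, with 1100 at an unadjusted p under 0.05. Cyp2c11 had a median of 51.0 on immature and 1899.3 on mature RT1-Bb-low arrays, with no overlap (20.7 to 214.4 against 834.6 to 3568.9). All 3 mature RT1-Bb-high arrays lay above that range, although the difference between the 2 sets did not pass (interaction 0.78, adjusted p = 0.663).

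The stage difference of Col1a1 did not differ detectably between the sets (interaction 0.01 ± 0.41, adjusted p = 0.994). Col1a1 differed by -2.37 in the 6 arrays, by -2.38 in the 21 and by -1.89 in the 5 of low 5S, and Col3a1 by -1.95, -2.49 and -3.53. Cdk1 gave -1.79, -1.34 and -1.84, and Agt 2.03, 1.34 and 1.52. Dcn gave -1.78, -0.93 and 0.23, Pttg1 -2.57, -0.69 and -0.03, and Jund 3.14, 1.23 and -0.29. On the 11 mature RT1-Bb-low arrays Jund ran from 20.7 to 487.6, and Pttg1 from 46.6 to 461.3. Neither gene's difference between the sets passed (adjusted p = 0.433 for Jund and 0.0933 for Pttg1). Oxsr1 gave 2.093, -0.089 and -0.605, Mapk8ip1 1.959, 0.578 and -1.105, and Pak1 1.816, 0.349 and -0.343. Tgfb1 gave 1.638, 0.345 and 0.187. Among the falls, Ngfr gave -1.735, 0.685 and -0.063. Ngfr, Plcb4 and Actg1 were not called in the 21, while Fkbp11 and Ddit3 were called lower there.

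**Figure D5:**
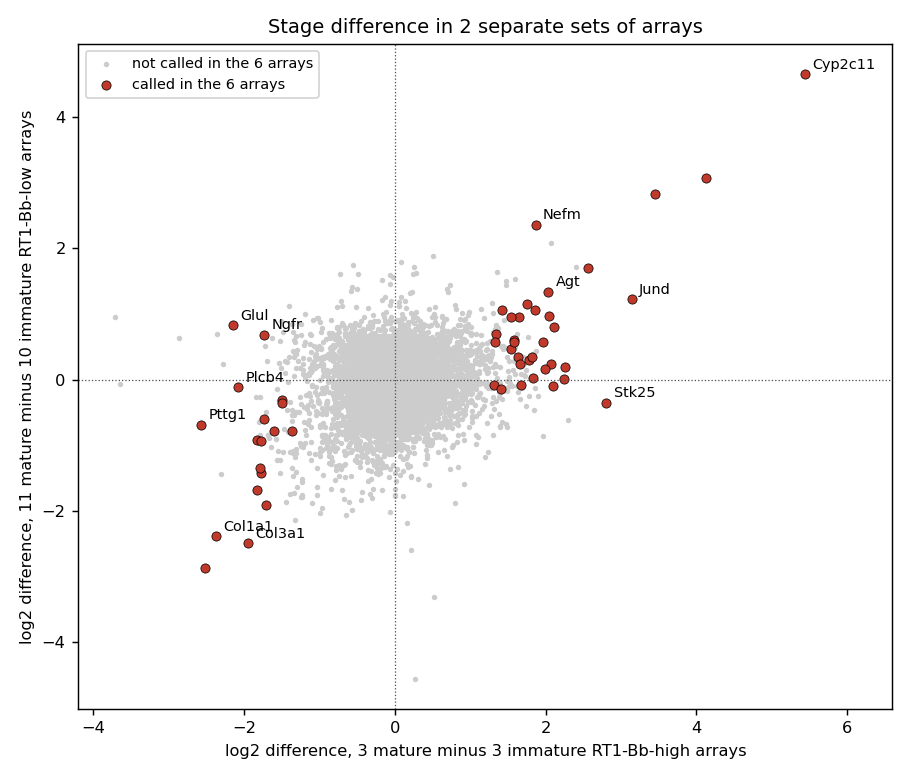
Log2 difference between stages in the 6 RT1-Bb-high arrays (x) against that in the 21 RT1-Bb-low arrays (y) for 6555 probe sets, with those called in the 6 arrays in red, except Alpl. Cyp2c11 lies at 5.44 and 4.65 and Col1a1 at -2.37 and -2.38, while Glul (-2.14 and 0.83) and Stk25 (2.81 and -0.35) lie in quadrants of opposite sign.

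A test of whether the stage difference itself differed between RT1-Bb-high and RT1-Bb-low arrays called 28 of 6555 probe sets (0.427%; 792 at an unadjusted p under 0.05). In 27 of the 28 the 2 sets had opposite signs, and in the 5 arrays of low 5S 2 of the 28 had the sign of the 6. Those 5 belong to the 21 that picked the 28, so this count is no separate check. Leaving out mature replicates 1 and 9, which have GAPDH ratios above 3, gave 84 calls. Of the 28, 3 were also called in the 6 arrays. Stk25 rose in the 6 arrays and differed by -0.35 in the 21 (interaction 3.16 ± 0.49, adjusted p = 0.00125). Celf2 gave 1.68 and -0.09 (adjusted p = 0.0162). The bright Glul probe set gave -2.14 and 0.83 (interaction -2.97, adjusted p = 5.84e-06), reading 7974.3 to 16955.0 on the mature RT1-Bb-low arrays. The 5 arrays of low 5S, themselves part of the 21, gave -0.06 for Stk25, -0.37 for Celf2 and 0.27 for Glul. Other genes with a called interaction were the peptide transporter gene Slc15a2 (0.84 and -0.52, adjusted p = 0.00447), the glucose transporter gene Slc2a1 (0.79 and -0.41, adjusted p = 0.047), the glycolytic enzyme gene Eno1 (-1.31 and 0.39, adjusted p = 0.00798) and Cox8a, a subunit of cytochrome c oxidase (-0.77 and 0.55, adjusted p = 0.027). These 4 were singled out after their values were seen.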

How the data were processed

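Total RNA of rat kidney had been hybridised to Affymetrix rat arrays, 1 per sample, and the deposited values are linear intensities per probe set, a sample to a column. How probes were summarised and scaled is not given in the sources used here. Of 8799 probe sets, 59 controls were left out, and probe sets under the 25th percentile of mean level over 55 arrays were removed, leaving 6555 of 3835 genes. Values were taken as log2(intensity + 15.82), the offset being a share of 0.1 of the median, so folds of dim genes are understated. Groups came from the sample descriptions. Stages were compared with limma 3.58.1 (R 4.3.3; lmFit and eBayes), 3 arrays against 3, with Benjamini-Hochberg adjustment over 6555 probe sets and a threshold of 0.05. The interaction and the stage difference of the 21 RT1-Bb-low arrays came from 1 fit on 27 arrays. Every adjusted p is limma's. Probe sets were named through GEO's platform annotation, 7018 with 1 symbol, 308 with several and 1473 with none, and 6994 symbols were matched to RefSeq. The rule named up to 15 called genes a direction and the 4 smallest p of every list; not all list genes are printed, and Erbb3, Chrna4 and other genes outside it were singled out after their values were seen. Members, rules and gene lists were chosen with earlier results of these data known. Tried alternatives were other offsets, normalizations, filters, spread estimates and array sets, and leaving out each array. In data simulated on the 6 arrays, 0.0%, 20.9% and 86.4% of changes of 0.5, 1.0 and 2.0 on the log2 scale were recovered. The number of arrays limits the precision.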

Additional observations from a re-analysis of the deposited data

Results flagged for a closer look

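The stage difference of 3 called genes differed between the RT1-Bb-high and RT1-Bb-low arrays in limma's interaction test. For Stk25 the difference in the 6 arrays exceeded that in the 21 by 3.155 on the log2 scale (adjusted p = 0.00125), and for Celf2 by 1.764 (adjusted p = 0.0162). For the brightest Glul probe set it was -2.97 (adjusted p = 5.84e-06). Actg1 read 3270.6 on immature replicate 5, apart from the other RT1-Bb-low immature arrays, which reached 11568.4, with a gap of 0.588 of the whole range. Chance sets a sample apart in this way in about 1 in 20 groups.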

How the results depend on the processing

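All 53 called probe sets kept their direction when 1 array was left out, and so did those tested under each of 11 other alternatives (31 at the 50th percentile filter, 52 at the filter on the 6 arrays, otherwise 53). Since none of the 53 overlapped between the stages, leaving out arrays or changing the offset, filter, weights or spread could not turn a sign. Signs could turn only under the normalizations, the fit on all arrays of low 5S and the averaging of a gene's probe sets. In all 11, 9 were called. The count was 84 with an offset of 0.5 of the median and 82 with array weights, of which 44 and 53 were among the 53. With the spread of all 27 arrays it was 56, of which 26 were among the 53. Leaving out 1 array gave 4 to 64 probe sets and 2 to 37 genes. Of the 64, found without immature replicate 3, 38 were among the 53. Of 349 values of called genes under alternatives that keep all 6 arrays, 57 lost the call and 0 turned. Of 180 with 1 array left out 126 lost it and 0 turned, as none could. Using every immature and mature array of low 5S, with RT1-Bb class as a term, 46 were called, 18 higher and 28 lower, 21 of them among the 53. There the log2 difference of uncalled genes turned to -0.488 for Slc5a3, 0.022 for Ptpro, -0.115 for Pecam1, 0.408 for Cd74, -0.16 for Slc4a1, -0.113 for Igf2r, -0.236 for Ehhadh, -0.055 for Ndufs1 and -0.123 for Pax8. Averaging probe sets of a gene gave 0.284 for Cd74, -0.224 for Slc4a1 and 0.084 for Gstt2. The interaction count was 18 after quantile normalization and 84 without mature replicates 1 and 9. Leaving out mature replicate 12, and the comparison within the 5 arrays of low 5S, were chosen after seeing the data; the first gave 20. Of 29 lists, the median of 16 turned sign in an alternative. The causes were not tested. No paired analysis was possible because the labels give the groups no shared replicate numbers.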
